A study of Arabidopsis thaliana with 4 samples.

Results

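The 6 AP2-like genes that carry a site for the microRNA miR172 were examined in Arabidopsis thaliana seedlings. They are AP2 (AT4G36920), TOE1 (AT2G28550, also named RAP2.7), TOE2 (AT5G60120), TOE3 (AT5G67180), SMZ (AT3G54990) and SNZ (AT2G39250), taken by locus from the 33557 loci listed in each library. RNA came from seedlings 14 days old, raised under a daily cycle of 16 h light and 8 h dark. The mos2-2 seedlings carried a T-DNA insertion in MOS2, which encodes an RNA-binding protein that the study links to microRNA maturation. The wild type was Col-0, the background of mos2-2. There were 2 poly(A) RNA libraries per genotype, and the labels do not say whether these came from separate cultures or how many seedlings were pooled, so every p-value reflects library-to-library spread that may be technical in origin.

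The 6 genes encode transcription factors with AP2 DNA-binding domains and belong to the age pathway of Arabidopsis. In young plants they hold back flowering and adult traits, and miR172, whose level is known to increase as the plant ages, releases that block. Plant miR172 acts on these transcripts by repressing translation as well as by cleavage, so the transcript level is only 1 readout of its action. AP2 itself is best known as a floral organ identity gene that restricts AGAMOUS in the flower.

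The mature miR172 sequences are shown first because their pairing with the transcripts is what unites the 6 genes. The annotation of TAIR10.1 (RefSeq) holds 5 miR172 genes, whose 3′ arms give 3 distinct sequences with the same seed. They are written 5′ to 3′ with the seed, bases 2 to 8, in capitals.
miR172a and miR172b-3p: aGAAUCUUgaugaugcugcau
miR172c and miR172d-3p: aGAAUCUUgaugaugcugcag
miR172e-3p: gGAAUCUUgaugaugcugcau

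The complementary sites were located in the transcripts of the same annotation. Each is given 5′ to 3′ as RNA of the transcript strand, with capitals at bases that do not form a Watson-Crick pair with miR172a (mismatches and G:U pairs).
TOE2: augcagcaucaucaGgauucu
AP2: CugcagcaucaucaGgauucu
TOE1: CAgcagcaucaucaGgauucu
TOE3: UGgcagcaucaucaGgauucu
SMZ: UugcagcaucaucaGgauucC
SNZ: UugUagcaucaucaGgauucC

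All 6 sites share a run of 16 bases, agcaucaucaggauuc, at positions 5 to 20 counted from the 5′ end of the 21 nt site. TOE2 had the closest match, with 0 mismatches and 1 G:U pair, and AP2 had 1 mismatch and 1 G:U pair. TOE1, TOE3 and SMZ had 2 mismatches and 1 G:U pair each, and SNZ had 2 mismatches and 2 G:U pairs. With a penalty of 1 per mismatch and 0.5 per G:U pair, the 6 genes scored at most 3. Among the 31460 genes with an annotated mRNA, 9 (0.0286%) did so, and these 9 include the 6. The others, SWEET2, HSD3 and AT5G12900, scored 3, the same as SNZ. The 11 AP2 family genes of the ANT and WRI1 clades were listed as lacking a site, and none of them scored 3 or less (0 of 11). Because the cutoff is the highest score of the 6, these counts are a description and not a test.

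For the map, the transcript with the longest coding sequence that holds the site was chosen for each gene. A site inside the coding sequence was therefore set by the choice. In these transcripts every site lay in the last coding part of the gene, between 88.3% (TOE2) and 93.9% (TOE1) of the way along the coding sequence. The TOE2 site is at chr5:24210889-24210909 on the plus strand, in exon 9 of 10. The AP2 site is at chr4:17403019-17403039 on the plus strand, in exon 10 of 10. The TOE1 site at chr2:12226233-12226253 and the SNZ site at chr2:16389066-16389086 are on the minus strand, in exon 9 of 9 and exon 7 of 7. The TOE3 site at chr5:26802175-26802195 and the SMZ site at chr3:20373774-20373794 are also on the minus strand, in exon 9 of 9 and exon 7 of 7. The deposited values are sums over a gene, and not all annotated transcripts hold the site: it was found in 1 of 2 transcripts of SMZ and in 1 of 4 transcripts of TOE3. All transcripts of TOE1, TOE2 and SNZ hold it. It lay in the coding sequence in 3 of 6 transcripts of TOE1, 3 of 6 of TOE2 and 1 of 2 of SNZ, and past its end in the others.

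**Figure D1:**
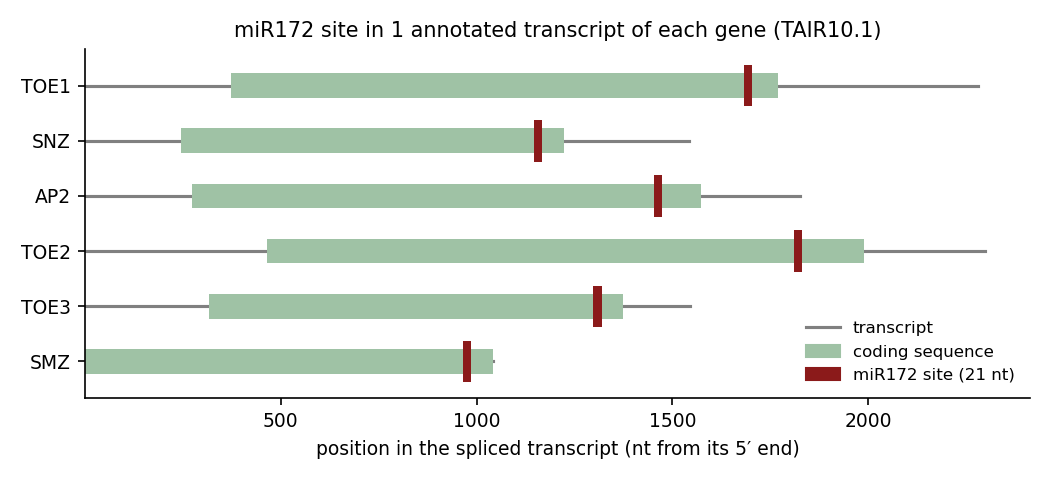
Position of the miR172 site (dark bar, 21 nt) in 1 annotated transcript of each gene, with the spliced transcript as a line and its coding sequence as a box; the x axis is the distance in nt from the transcript's 5′ end. In these transcripts, chosen to hold the site in the coding sequence, it lies near the 3′ end of that sequence, from 88.3% to 93.9% of its length.

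Expression was measured as FPKM, fragment counts scaled by transcript length and by the mapped fragments of the library, which the authors made per gene. MOS2 checked the labels: it was at 2.16 and 1.16 FPKM in mos2-2 and at 50.3 and 36.9 FPKM in Col-0. Depth estimated from the FPKM of genes with 1 read was about 6350000 and 6680000 reads in mos2-2 and 3980000 and 6350000 reads in Col-0, so Col-0 replicate 1 was the shallowest library. Marker genes were set beside the seedling label, and the share of each tissue in the material was not tested. The 4 leaf markers summed to 20021 and 34402 FPKM in mos2-2 and to 14877 and 25777 FPKM in Col-0. Of 5 root markers only SHR and SCR had a mean of at least 1 FPKM, the root hair regulator RHD6 was listed at 0 in all libraries, COBL9 and PHT1;1 were at most 0.21 and 0.23 FPKM, and 3 of 4 seed genes were listed at 0. All 6 flower organ markers had a mean of at least 1 FPKM, and they summed to 8.83 and 44.96 FPKM in mos2-2 and to 57.7 and 22.8 FPKM in Col-0. Of these 6 markers 1 had a higher and 5 a lower estimate in mos2-2, all with overlap. Of 3 shoot meristem markers only STM had a mean of at least 1 FPKM. It was at 3.52 and 12.1 FPKM in mos2-2 and at 13.3 and 11.7 FPKM in Col-0, with overlap.

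In mos2-2, 5 of the 6 genes had higher estimates and 1, AP2, had a lower one than in Col-0, and none passed the test. The genotypes were compared with limma on log2(FPKM + 1) over the 19236 genes whose mean reached 1 FPKM, a filter that all 6 passed. Over all genes tested 12 (0.0624%) passed a Benjamini-Hochberg adjusted p of 0.05, and 0 of the 6 did. MOS2 itself, 26.3-fold lower in mos2-2 by mean FPKM, did not pass either (limma adjusted p 0.0727). A gene that does not pass is therefore not shown to be unchanged. At an unadjusted p under 0.05 the counts were 1351 genes (7.02%) and 0 of the 6. The median log2 difference was 0.49 over the 6 genes and -0.091 over all genes tested, of which 40.6% had a higher estimate in mos2-2. By mean FPKM, SNZ was 1.86-fold and TOE2 1.79-fold higher in mos2-2, TOE1 was 1.61-fold higher and AP2 was 1.70-fold lower. With 2 libraries per genotype an exact two-sided permutation test of a single gene cannot go below p = 0.333.

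The floral repressors TOE1 and TOE2 come first. TOE1 restrains the transition to flowering and is known to bind the florigen gene FT. It had the highest mean of the 6 in both genotypes, at 35.4 and 59.2 FPKM in mos2-2 and at 16.7 and 42.1 FPKM in Col-0. The genotypes overlapped, since Col-0 replicate 2 lay between the mos2-2 libraries, and Col-0 replicate 1 was the lowest of the 4. The log2 difference was 0.76 (SE 0.53, 95% interval -0.60 to 2.13, limma adjusted p 0.796). Without Col-0 replicate 1 it was 0.12, and without Col-0 replicate 2 it was 1.40.

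TOE2 acts redundantly with TOE1 in delaying flowering. Its level was 8.88 and 9.03 FPKM in mos2-2 and 3.71 and 6.30 FPKM in Col-0. Both mos2-2 libraries lay above both Col-0 libraries and close to each other, and TOE2 was the only 1 of the 6 genes that was higher without overlap in the values as deposited. Among all genes tested 2520 (13.1%) were higher in mos2-2 without overlap in the deposited values. After quantile normalization SMZ was higher without overlap too, and 3980 of the 19236 genes tested were. Mean FPKM of TOE2 was 1.79-fold higher, at 8.95 ± 0.111 in mos2-2 and 5.0 ± 1.83 in Col-0 (SD, n = 2 each). The log2 difference was 0.76 (SE 0.30, 95% interval -0.0092 to 1.54), with an unadjusted limma p of 0.0519 and an adjusted p of 0.713. Without Col-0 replicate 1 it was 0.45. These values rested on an estimated 41.3 to 169 reads per library.

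SMZ and SNZ, named after German words for sleepyheads, are paralogous repressors of flowering. SNZ was at 11.6 and 22.8 FPKM in mos2-2 and at 5.28 and 13.2 FPKM in Col-0. The libraries stood in the same order as for TOE1, with Col-0 replicate 1 lowest, then mos2-2 replicate 1, Col-0 replicate 2 and mos2-2 replicate 2. The log2 difference of SNZ was 0.88 (SE 0.52, 95% interval -0.48 to 2.24, limma adjusted p 0.795), and it was 0.29 without Col-0 replicate 1 and 0.42 without mos2-2 replicate 2. SMZ was the least abundant gene, at 1.41 and 1.78 FPKM in mos2-2 and at 1.69 and 0.816 FPKM in Col-0, which corresponds to an estimated 5.4 to 12.4 reads per library. Its genotypes overlapped, with a log2 difference of 0.23 (SE 0.37, limma adjusted p 0.914), which is within the spread between libraries. SMZ also shares 328 nt of annotated exon with AT3G54980 on the other strand, which was at 1.60 and 1.17 FPKM in mos2-2 and at 2.94 and 1.95 FPKM in Col-0. The strand setting of the counting is not given in the sources used here, so reads of the shared stretch cannot be told apart.

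TOE3, which like AP2 is known to repress AGAMOUS, differed least between genotypes. It was at 2.94 and 4.55 FPKM in mos2-2 and at 3.0 and 4.40 FPKM in Col-0, so each genotype had a library near 3 FPKM and another above 4 FPKM. The log2 difference was 0.0099 (SE 0.32, 95% interval -0.82 to 0.84), an interval that includes differences of more than 1.5 times in either direction. TOE3 shares 119 nt of exon with AT5G67170 on the other strand, with the same limit on reads.

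AP2 had a level of 9.13 and 9.79 FPKM in mos2-2 and of 21.1 and 11.1 FPKM in Col-0, the only lower estimate among the 6. The genotypes did not overlap, and Col-0 replicate 1 stood well above the other 3 libraries. Among all genes tested 24.7% were lower in mos2-2 without overlap. The log2 difference was -0.65 (SE 0.35, 95% interval -1.56 to 0.26, limma adjusted p 0.787). Without Col-0 replicate 1 it was -0.22, and without Col-0 replicate 2 it was -1.08. The summed flower organ markers were also highest in Col-0 replicate 1, at 57.7 FPKM, although SEP1 among them was highest in mos2-2 replicate 2. Between the mos2-2 libraries, however, the marker sum was 8.83 and 44.96 FPKM while AP2 was 9.13 and 9.79 FPKM. The part of flower content in the AP2 difference was not tested, and in bulk RNA fewer cells of a type and less RNA per cell cannot be told apart.

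**Figure D2:**
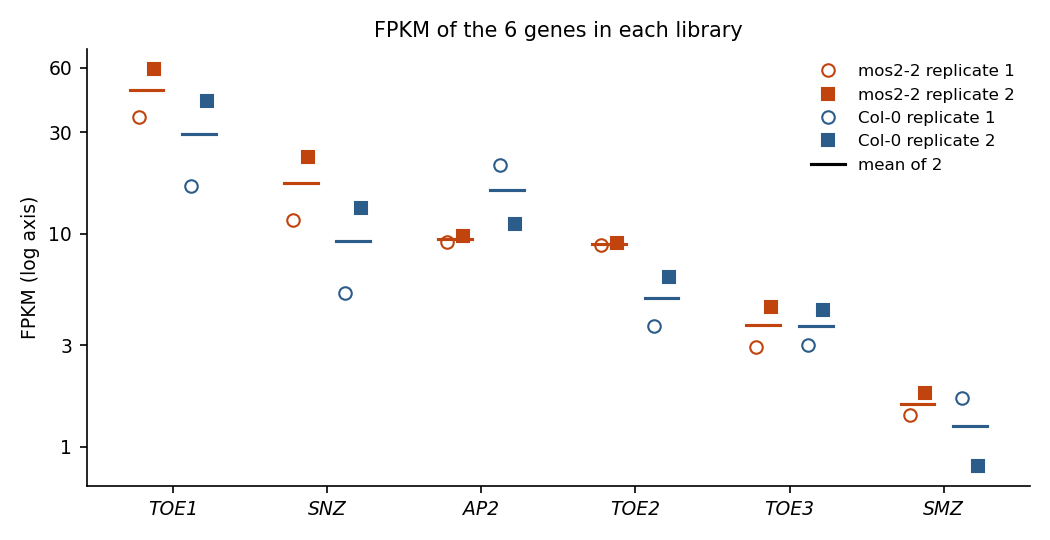
FPKM (log axis) of the 6 genes in each library, mos2-2 in orange and Col-0 in blue, with replicate 1 as open circles, replicate 2 as filled squares and the mean of 2 libraries as a line. Only TOE2 (higher in mos2-2) and AP2 (lower in mos2-2) have genotypes that do not overlap in these deposited values.

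Thus 2 of the 6 genes, 1 in each direction, did not overlap between genotypes, where 37.8% of all genes tested did not. In 5 of the 6 genes the Col-0 libraries lay further apart on the log2 scale than the genotype means, and in 2 of the 6 the mos2-2 libraries did. TOE1 differed 2.52-fold and SNZ 2.49-fold between the Col-0 libraries, against 1.67-fold and 1.96-fold between the mos2-2 libraries. The deposited values carried a small offset between genotypes: quantile normalization moved the median of all genes tested by 0.10, to 0.013. Relative to the median of all genes the differences were 0.97 for SNZ, 0.85 for TOE2, 0.85 for TOE1, 0.32 for SMZ, 0.10 for TOE3 and -0.56 for AP2. Under median-ratio scaling and quantile normalization each of the 6 kept its direction.

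**Figure D3:**
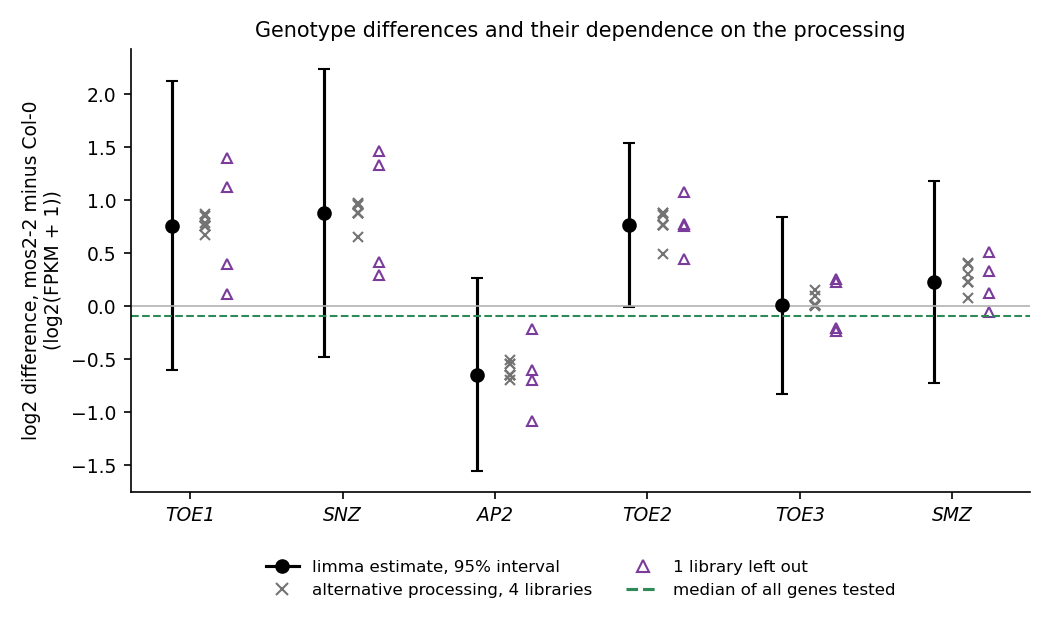
Log2 difference of each gene, mos2-2 minus Col-0, on the log2(FPKM + 1) scale, with the limma estimate and its 95% interval (black), the alternative processing settings with all 4 libraries (crosses) and the settings with 1 library left out (triangles). All 6 intervals include 0, and the triangles of TOE1 run from 0.12 to 1.40.

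Because FPKM is per length, levels can be set side by side between the 6 genes. In mos2-2 the order of mean FPKM was TOE1, SNZ, AP2, TOE2, TOE3 and SMZ, and no 2 neighbours in that order overlapped, although AP2 and TOE2 were at 9.46 and 8.95 FPKM. In Col-0 it was TOE1, AP2, SNZ, TOE2, TOE3 and SMZ, and every pair of neighbours overlapped except TOE3 and SMZ. The summed level of the 6 genes was 69.4 and 107 FPKM in mos2-2 and 51.5 and 77.9 FPKM in Col-0, which overlapped. TOE1 made up 51.0% and 55.2% of that sum in mos2-2 and 32.4% and 54.0% in Col-0. AP2 made up 13.2% and 9.14% in mos2-2 and 41.0% and 14.3% in Col-0, so Col-0 replicate 1 was the only library in which AP2 rather than TOE1 was the most abundant.

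The 6 genes did not vary alike across libraries. Likeness was measured as the root mean square difference, over the 4 libraries, between log2(FPKM + 1) values centred on each gene's mean. TOE1 and SNZ were the closest of the 15 gene pairs at 0.096, and AP2 and SNZ were the furthest apart at 1.09. Among 14159 other genes whose mean reached 5 FPKM, SNZ ranked 9 in likeness to TOE1. With 4 libraries many genes share a pattern: 60 genes lay within 0.2 of TOE1, 43 of SNZ, 201 of TOE2, 626 of AP2, 864 of TOE3 and 1859 of SMZ. The nearest gene was AT1G72500 to TOE1, AT5G56100 to SNZ, AT1G15290 to TOE2, E13L3 (AT5G08000) to AP2 and PUM24 (AT3G16810) to TOE3.

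Genes of the circadian clock and of flowers also differed between libraries of a genotype. GI, a clock-associated gene known to raise miR172, was at 17.6 and 11 FPKM in mos2-2 and at 1.29 and 29.9 FPKM in Col-0. The clock gene PRR5 was at 46.2 and 62.4 FPKM in mos2-2 and at 6.45 and 101 FPKM in Col-0. Both were lowest in Col-0 replicate 1, as were TOE1, TOE2 and SNZ, and both were highest in Col-0 replicate 2, where these 3 genes were not. Some other clock genes, but not all, had exactly the library order of TOE1 and SNZ, with Col-0 replicate 1 lowest and mos2-2 replicate 2 highest. The morning clock gene CCA1 was at 0.760 and 24.2 FPKM in mos2-2 and at 0.485 and 4.41 FPKM in Col-0, and LHY was at 0.644 and 4.80 FPKM in mos2-2 and at 0.088 and 1.20 FPKM in Col-0. PRR9, chosen after its values were seen, had that order as well. TOC1, ELF4 and LUX did not have it, and each was lowest in mos2-2 replicate 2, at 14.5, 65.9 and 25.5 FPKM. PRR7 was lowest in Col-0 replicate 1, at 5.04 FPKM, and highest in Col-0 replicate 2, at 50.7 FPKM. SVP, a MADS-box repressor of flowering that is known to lower miR172, was at 61.8 and 97.5 FPKM in mos2-2 and at 38.2 and 69.5 FPKM in Col-0, with the libraries in the order seen for TOE1 and SNZ. Of 8 clock genes, 5 had higher and 3 lower estimates in mos2-2, all with overlap, and 0 passed. The part of these library differences in the values of the 6 genes was not tested.

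**Figure D4:**
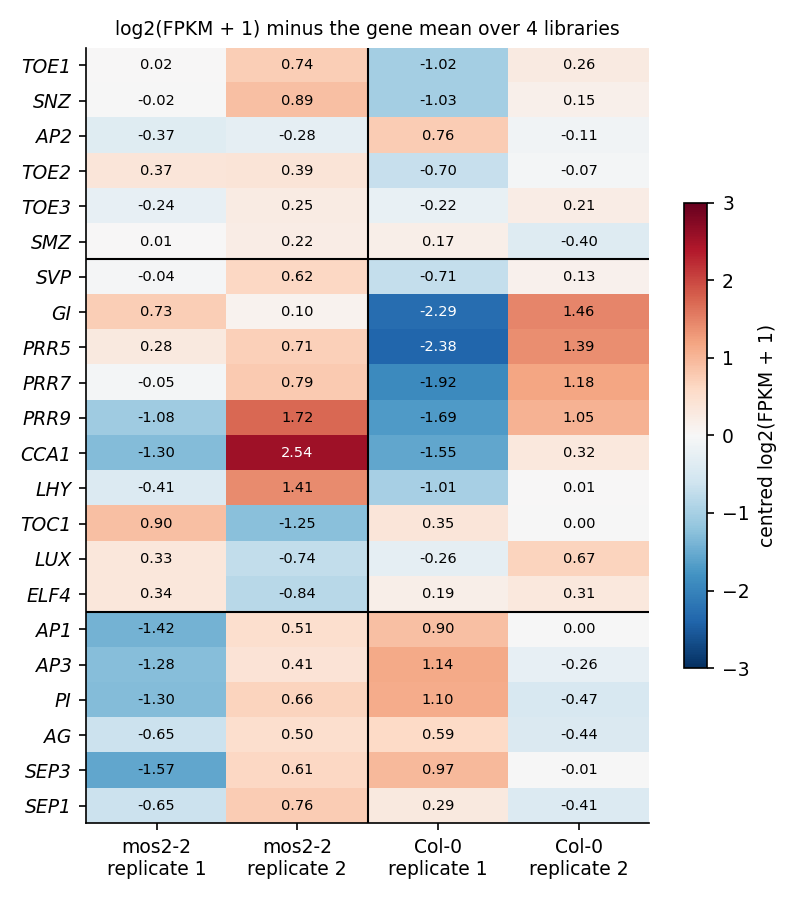
Values of log2(FPKM + 1) minus the gene's mean over the 4 libraries, for the 6 genes (top block), SVP and clock genes (middle block) and flower organ markers (bottom block), with mos2-2 libraries left of Col-0 libraries. TOE1 and SNZ have nearly the same row, at -1.02 and -1.03 in Col-0 replicate 1, while AP2 is at 0.76 there.

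The transcripts of the miR172 genes themselves were barely measured. MIR172A was listed at 0 in mos2-2 replicate 1 and at 0.275 FPKM in mos2-2 replicate 2, and at 0.226 and 0.285 FPKM in Col-0. MIR172B, MIR172C, MIR172D and MIR172E were listed at 0 in all 4 libraries. None of these 5 genes could be tested, and mature miR172 is not measured in poly(A) libraries.

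Among 9 genes of microRNA processing, 0 passed the limma threshold, with 7 higher and 2 lower estimates in mos2-2. MOS2 had the lowest adjusted p, 0.0727. DCL1, the nuclease that cuts microRNA precursors, was at 9.66 and 8.04 FPKM in mos2-2 and at 5.25 and 4.53 FPKM in Col-0 (unadjusted limma p 0.0278, adjusted p 0.677).

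The other genes tied to the 6 were described from lists. Of 6 upstream regulators, 4 had higher and 2 lower estimates in mos2-2 and 0 passed, with a median log2 difference of 0.23. SPL15, a target of miR156 in the same age pathway, was at 0.435 and 1.58 FPKM in mos2-2 and at 1.56 and 1.42 FPKM in Col-0. Of 7 corepressors and partners, 2 had higher and 5 lower estimates and 0 passed. TPR3, a TOPLESS-related corepressor, was at 1.98 and 3.02 FPKM in mos2-2 and at 3.86 and 4.42 FPKM in Col-0, without overlap. HDA19, a histone deacetylase recruited by such complexes, was at 72.2 and 78.4 FPKM in mos2-2 and at 65.2 and 53.3 FPKM in Col-0, also without overlap.

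Flowering genes that these factors are known to act on, or that respond downstream, had mostly lower estimates. Of 11 genes 9 were tested, with 1 higher and 8 lower and 0 past the limma threshold. Over all genes tested 40.6% had a higher estimate in mos2-2. The median log2 difference was -0.30 for the list and -0.091 over all genes tested. Of the 9, 2 were lower and 0 higher without overlap, where 24.7% and 13.1% of all genes tested were. SPL3, itself a miR156 target, was at 24.6 and 26.4 FPKM in mos2-2 and at 52.9 and 35.6 FPKM in Col-0. It did not overlap and had the smallest unadjusted limma p of the list, 0.0516 (adjusted p 0.713). The flowering promoter AGL24 was at 16.4 and 20.3 FPKM in mos2-2 and at 39.8 and 22.6 FPKM in Col-0, also without overlap. FT, the florigen gene, was at 1.17 and 2.08 FPKM in mos2-2 and at 3.12 and 1.38 FPKM in Col-0, with overlap. The floral identity gene AP1 was at 0.876 and 6.15 FPKM in mos2-2 and at 8.34 and 4.0 FPKM in Col-0. Like AP2, SPL3, AGL24, FT and AP1 were highest in Col-0 replicate 1, the library with the highest sum of flower organ markers. AP1 is itself part of that sum.

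Of 6 other floral repressors, 2 had higher and 4 lower estimates, 0 passed, and 2 had an unadjusted limma p under 0.05. FLC, a MADS-box repressor, was at 20.8 and 6.70 FPKM in mos2-2 and at 3.12 and 2.67 FPKM in Col-0 (unadjusted p 0.0235). MAF1, of the same clade, was at 18.2 and 24.4 FPKM in mos2-2 and at 56.9 and 45.1 FPKM in Col-0 (unadjusted p 0.00783). TEM1, which also represses FT, was at 70.7 and 94.1 FPKM in mos2-2 and at 119 and 161 FPKM in Col-0.

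Members of the AP2 family without a miR172 site were set beside the 6 genes as a description. Of 11 such genes 6 were tested, with 3 higher and 3 lower estimates and 0 past the threshold, and their median log2 difference was 0.050. ANT, a regulator of organ growth, was at 6.10 and 6.23 FPKM in mos2-2 and at 10.9 and 7.38 FPKM in Col-0, lower without overlap and highest in Col-0 replicate 1, as AP2 was. WRI1, an activator of fatty acid synthesis, was at 3.66 and 3.54 FPKM in mos2-2 and at 2.97 and 2.86 FPKM in Col-0, higher without overlap. Thus 1 of the 6 tested was higher and 1 lower without overlap, the same counts as for the 6 miR172 targets. Over all genes tested the shares were 13.1% and 24.7%. BBM, PLT1 and AIL1 were listed at 0 in all libraries. The difference between the 2 sets of genes was not tested. At an unadjusted limma p under 0.05 there were 2 of the 9 microRNA processing genes (MOS2 and DCL1) and 2 of the 6 other floral repressors, and 0 genes in each of the remaining lists: upstream regulators, corepressors, flowering genes, AP2 family without a site, clock and flower organ markers.

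**Figure D5:**
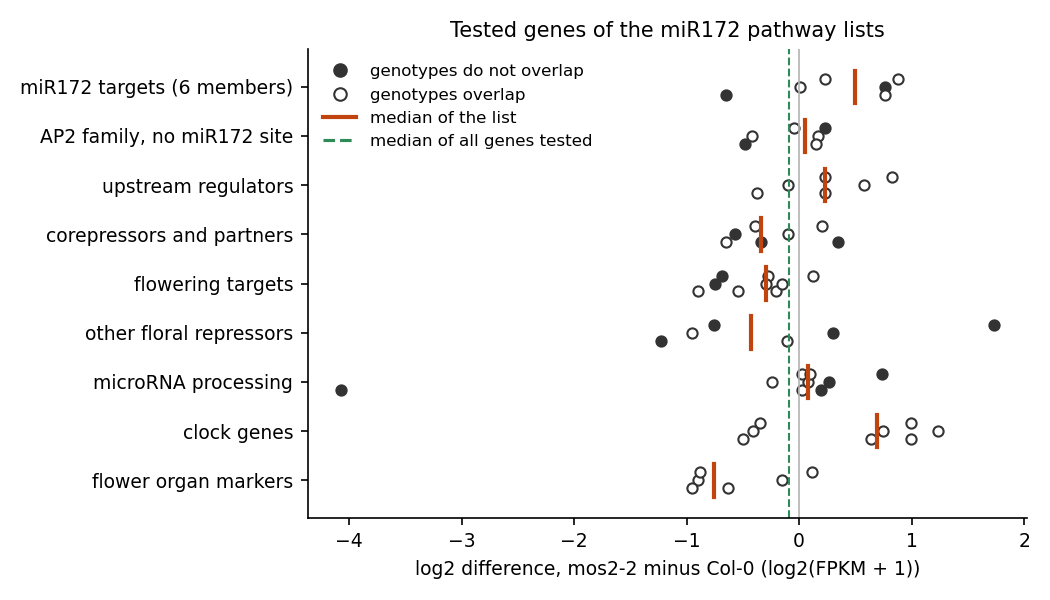
Log2 differences, mos2-2 minus Col-0, of the tested genes of each list on the log2(FPKM + 1) scale; filled points are genes whose genotypes do not overlap, orange bars are list medians and the dashed line is the median of all genes tested (-0.091). The 6 miR172 targets have a median of 0.49, and the point at the far left is MOS2.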

How the data were processed

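Each library has 1 file, whose FPKM values the authors produced per gene using TopHat and Cuffdiff, per the submitters' processing notes, which also name TAIR10 as the build. Not given in the sources used here were software versions, the annotation release, the strand setting and how reads with several matches were handled. A value listed at 0 may stand for a failed estimate. Names, gene models and sequences came from the TAIR10.1 annotation, which matched 32810 of the 33557 loci.

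Genotypes were compared with limma 3.58.1 (R 4.3.3) on log2(FPKM + 1), with a mean-variance trend and two-sided tests. Genes entered if their mean reached 1 FPKM, which left 19236, and p-values were adjusted over all of them by Benjamini-Hochberg (2 residual degrees of freedom, prior 2.84). This scale understates the change of low genes. The model was tested on simulated data. Depth was estimated from the lowest common FPKM of single-transcript genes of 1200 to 2000 nt, and reads of a gene from its longest transcript, so both are approximate. Sites were searched without gaps. All 6 genes were named whatever their values, and up to 5 genes of each list by smallest p, with genes listed at 0. FT and the clock genes PRR9, PRR7 and TOC1 fall outside that rule and were named after their values were seen. The gene nearest in pattern to SMZ is not reported here. Members and lists were chosen with earlier results of these data known. Alternatives covered pseudocount, filter, scaling, variance trend, replicate block and leaving out each library.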

Additional observations from a re-analysis of the deposited data

How the results depend on the processing

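No cause of a change given here was tested. Over all genes, 12 passed the limma threshold; a pseudocount of 5 gave 4, dropping the filter on low values gave 4, dropping the mean-variance trend gave 7 and adding the replicate block gave 6. Leaving out any 1 library gave 0, with 788 to 1743 genes at an unadjusted p under 0.05; such fits keep 1 residual degree of freedom and assume that the single library varies as the other genotype does. None of the 6 AP2-like genes passed in any alternative run, and the lowest adjusted p was 0.416 (SNZ with the block). The labels state no pairing by replicate number; across genes, the deviations of libraries with the same number had r = 0.211. With the block SNZ, TOE1 and TOE2 had unadjusted p of 0.0132, 0.0391 and 0.0395; in that fit 1930 of all 19236 genes were under 0.05, and 1351 without the block.

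With all 4 libraries, all 46 differences of the 6 genes over 8 alternatives kept their direction; TOE3 and SMZ were not tested at a mean of 5 FPKM or more. With 1 library left out 21 of 24 did. TOE3 ran from -0.24 to 0.26, SMZ from -0.057 to 0.51, TOE1 from 0.12 to 1.40, SNZ from 0.29 to 1.46, TOE2 from 0.45 to 1.08 and AP2 from -1.08 to -0.22. The 2 genes without overlap became 3 with quantile normalization (SMZ added), where 39.1% of all genes did not overlap. They became 3 to 6 with 1 library left out, where 64.3% to 74.5% of all genes did not overlap. Of genes without overlap 34.6% were higher in mos2-2 as deposited, 50.7% with median-ratio scaling and 52.9% with quantile normalization. SMZ had the fewest reads, an estimated 5.4 to 12.4.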
